A study of Drosophila melanogaster with 3 samples.

Results

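In the larval brain RNA table of Drosophila melanogaster studied here, 1769 of 15229 rows carry no gene name. The unnamed loci described below are the 941 of these (6.18% of all rows) whose span, end minus start plus 1 as the table lists them, is 400 bp or more. The other 828 unnamed rows are shorter and 13460 rows are named. RNA came from brains of the 3rd larval instar, with 1 library for each of 3 genotypes. The single mutant library was from dBRWD3PX2/PX2 animals, which carry the dBRWD3 allele PX2 on both chromosomes. The double mutant library was from dBRWD3PX2/PX2, yemGS21861/GS21861 animals, which also carry the yem allele GS21861 on both chromosomes. The control library was from dBRWD3PX2/+ animals, so the control shares 1 copy of PX2 with the mutants and is not wild type. All values are RPKM (reads per kilobase, scaled to a common library size) as the authors deposited them, and positions are in the dm3 build. Because each genotype has a single library, the spread between samples is unknown, no test was run, and every statement compares libraries.

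An assembler such as Cufflinks joins overlapping reads into transcripts and leaves a locus without a name when it overlaps no annotated exon in the same direction. Libraries made from rRNA-depleted total RNA keep unspliced precursors, enhancer-derived and other long noncoding RNA and transposon transcripts beside messenger RNA, so unnamed fragments can come from introns, from intergenic DNA or from unannotated ends of genes. BRWD3 is a WD-repeat and bromodomain protein that works with the cullin 4 ubiquitin ligase. The product of yem, yemanuclein, is a partner of the chaperone HIRA, which deposits histone H3.3 outside of replication. The comparison asks how RNA differs between larvae with 2 copies and with 1 copy of PX2, and between larvae with and without the yem allele.

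The libraries held the RNA of brain markers, and RNA of other tissues beside it. The neuronal genes differed in order: elav and n-syb had 32.1 and 17.6 RPKM in the single mutant, 40.7 and 26.4 RPKM in the double mutant, and 21.2 and 16.7 RPKM in control, whereas brp and Syt1 had 7.48 and 2.09 RPKM, 21.0 and 4.92 RPKM, and 10.4 and 3.50 RPKM. All 4 were highest in the double mutant. Of the other brain markers, dpn was highest in the single mutant, with 16.5 RPKM there, 13.0 RPKM in the double mutant and 14.0 RPKM in control. In the same order repo had 6.73, 16.4 and 12.4 RPKM and pros had 9.99, 22.1 and 8.08 RPKM, both highest in the double mutant. The blood cell genes Hml and proPO-A1 had 29.4 and 92.0 RPKM in the single mutant, 94.1 and 365 RPKM in the double mutant, and 29.9 and 119 RPKM in control. The fat body genes Lsp2 and Fbp1 had 82.5 and 29.5 RPKM in the single mutant, 505 and 110.4 RPKM in the double mutant, and 271 and 100.5 RPKM in control. Of the salivary glue genes, Sgs7 and Sgs5 were highest in the single mutant, with 317 and 128.5 RPKM there, 46.7 and 17.2 RPKM in the double mutant, and 84.0 and 24.0 RPKM in control, while Sgs3 had 5.40, 2.65 and 6.89 RPKM and was highest in control. The gut protease genes Jon65Aiii and deltaTry had 0.280 and 0.589 RPKM in the single mutant, 9.57 and 8.96 RPKM in the double mutant, and 29.9 and 25.1 RPKM in control. The ring gland genes phm and dib had 253 and 16.7 RPKM in the single mutant, 236 and 13.1 RPKM in the double mutant. In control they had 279 and 11.2 RPKM. The muscle genes Mhc and Mlc2 had 5.93 and 3.78 RPKM in the single mutant, 2.96 and 2.80 RPKM in the double mutant. In control these had 7.99 and 3.32 RPKM. BRWD3 itself had 43.2 RPKM in the single mutant, 47.8 RPKM in the double mutant and 29.1 RPKM in control, and yem, listed as yemalpha, had 8.04, 15.6 and 11.9 RPKM. The effect of the alleles on RNA level was not given in the sources used here, so neither gene checks the labels. The part of other tissues in the values below was not tested, and in whole brains fewer cells of a type and less RNA per cell cannot be told apart.

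Most of the unnamed loci stood in a section of the table that holds almost no named row. The table runs along each chromosome up to 3 times, each time from low to high positions. Named rows of the first pass whose symbol is in the current annotation were on the plus strand in 4828 cases and on the minus strand in 26, and those of the second pass on the minus strand in 4871 cases and the plus strand in 19. The third pass holds 1687 rows, of which 1 is named. Of the 941 unnamed loci, 863 (91.7%) were in the third pass, 34 in the first and 44 in the second. The third pass is taken here as the rows without an assigned direction, which is the usual state of unspliced fragments where reads do not carry strand; the table itself has no strand column.

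The span of a row is that of the assembled bundle it belongs to, which can hold several rows. The 941 loci lay on 683 distinct spans, and 582 were alone on theirs. For 266 loci (28.3%) a named row has exactly the same span, with a median of 37363.5 bp, so these loci lie somewhere within or beside a gene and their own length is not given. The other 675 loci had spans that no named row shares, with a median of 657 bp, and 1 of them overlapped a named row. Of the 673 of these with a named row on the same sequence, 160 lay within 1 kb of the nearest one, 355 between 1 and 10 kb and 158 farther than 10 kb, with a median gap of 3.68 kb. The longest span (3RHet, 242375 to 759960) was a bundle of 517587 bp with 8 unnamed loci that also holds the joined row CG15831,CG42621. The 5 loci at the limit had spans from 400 to 402 bp and values between 0.423 and 2.57 RPKM in the single mutant, 0.612 and 2.73 RPKM in the double mutant and 1.80 and 2.58 RPKM in control. The 5 rows just under it, of 398 and 399 bp, had values between 0.216 and 2.81 RPKM in the single mutant, 0.773 and 2.47 RPKM in the double mutant and 0.613 and 2.90 RPKM in control.

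The low values of these loci revealed how many reads stood behind them. For the 542 loci of the third pass that were alone on their span, the product of RPKM and span, after 202 bases were taken off the span, fell on evenly spaced steps of 0.0423 RPKM kb in the single mutant, 0.0303 RPKM kb in the double mutant and 0.0300 RPKM kb in control. Of the values above 0 and up to 50 steps, 98.7% in the single mutant, 97.2% in the double mutant and 96.8% in control lay within 0.05 step of a whole number. If a step is 1 read, the library sizes to which the values had been scaled, in 1e6 reads, were 23.6 for the single mutant, 33.0 for the double mutant and 33.3 for control. The median locus then rested on 13 reads in the single mutant, 20 in the double mutant and 22 in control. Fewer than 10 reads stood behind 186 of the 542 loci in the single mutant, 103 in the double mutant and 93 in control. Because 202 bases were not counted in the length, the RPKM of a locus near 400 bp is well above what its full length would give.

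**Figure D1:**
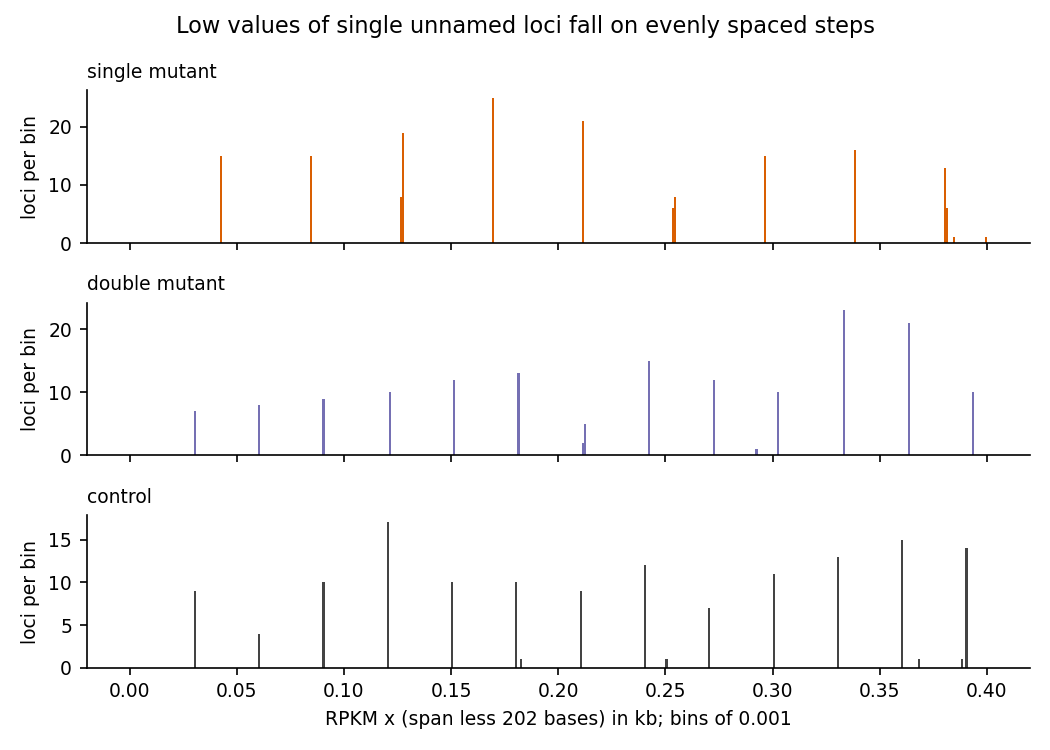
Number of loci (y axis, per bin of 0.001) against RPKM times the span less 202 bases, in kb (x axis), for the 542 loci of the third pass that were alone on their span, in the single mutant, double mutant and control libraries; values of 0 and above 0.4 are not drawn. The values stand on evenly spaced lines, 0.0423 apart in the single mutant, 0.0303 in the double mutant and 0.0300 in control.

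The control column differs in form from the others. Among the unnamed loci, 931 had a control value above 0, and 495 of these values (53.2%) carry a seventh digit or more, which is a 5 at the end in 487. No value of either mutant is as long. A mean of 2 values would look like this, and no source used here states one. If control is such a mean of libraries scaled alike, a control step is still 1 read and the control figure is the total of both.

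Levels were low in all 3 libraries. The median of the 941 loci was 1.64 RPKM in the single mutant, 1.86 RPKM in the double mutant and 1.77 RPKM in control, against 5.49, 6.24 and 5.43 RPKM for the named rows. The middle 80% of the loci ran between 0.417 and 5.20 RPKM in the single mutant, 0.550 and 6.47 RPKM in the double mutant, and 0.574 and 5.87 RPKM in control. Only 14 loci reached 10 RPKM in all 3 libraries, and 880 stayed under 10 RPKM in each.

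The highest value belonged to a locus of the second pass on X, 3436041 to 3467653, with 147732 RPKM in the single mutant, 118054 RPKM in the double mutant and 123470 RPKM in control. The named rows of that span, CG2875 and CG32792, stood between 1.06 and 18.0 RPKM in every library, so the unnamed value is not that of its neighbours. The length of the transcript behind it is not shown by the span. Both unnamed rows of the mitochondrial genome came next. They share 1 span (M, 1 to 15746), and the first had 401 RPKM in the single mutant, 279 RPKM in the double mutant and 247 RPKM in control, the second 294, 216 and 154 RPKM in the same libraries. Both were highest in the single mutant and lowest in control. Mitochondrial DNA carries genes on both strands that are transcribed as long precursors, and the table names none of them.

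A locus of 589 bp on the assembled heterochromatin 3RHet (859259 to 859846) had 99.97 RPKM in the single mutant, 68.6 RPKM in the double mutant and 100.01 RPKM in control. Its nearest named row, CG42624, lay 19329 bp away and had no more than 1.22 RPKM. In the 104941 bp bundle of CadN, which encodes N-cadherin, an adhesion protein of axons, 1 of 5 unnamed loci (XLOC_002672) had 36.4 RPKM in the single mutant, 45.1 RPKM in the double mutant and 43.6 RPKM in control. The other 4 loci of this bundle stayed under 5 RPKM. CadN had 22.5, 49.7 and 44.4 RPKM, so the leading locus stood at the level of the gene in the double mutant and control and above it in the single mutant. Near Pep, a gene for a protein found on ecdysone-induced puffs, a locus of the second pass (3L, 17638578 to 17639644) had 33.9 RPKM in the single mutant, 33.5 RPKM in the double mutant and 29.2 RPKM in control, while Pep had 394, 329 and 372 RPKM.

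Within the bundle of rno, which encodes a PHD finger protein, the unnamed locus (3L, 188276 to 199773) had 24.3 RPKM in the single mutant, 34.0 RPKM in the double mutant and 15.7 RPKM in control. The gene had 6.78, 11.1 and 7.64 RPKM, so the locus stood above its host in every library. The same was seen on chromosome 4 beside zfh2, a gene for a zinc finger homeodomain factor: the locus (4, 522452 to 560752) had 15.4 RPKM in the single mutant, 17.1 RPKM in the double mutant and 19.6 RPKM in control, and zfh2 had 6.42, 5.75 and 4.65 RPKM. The 12 highest also held 2 loci with spans of their own on 2L and 2 loci of a 3L bundle described below. The first (2L, 2391536 to 2392110) had 23.2 RPKM in the single mutant, 17.3 RPKM in the double mutant and 23.9 RPKM in control. The second (2L, 17560828 to 17562614) had 16.8, 21.6 and 17.6 RPKM, and lay 5062 bp from CG7094, which had at most 0.0706 RPKM.

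The loci were spread unevenly over the chromosomes. Arm 3L held 295 of the 941 (31.3%) but 19.5% of the named rows, whereas 3R held 153 (16.3%) and 24.3% of the named rows. The arms 2L, X and 2R held 147, 144 and 132 loci. Chromosome 4, a small and largely heterochromatic chromosome, held 23 (2.44%) and 0.624% of the named rows, and the heterochromatin sequences 3RHet, 2RHet, 3LHet and 2LHet held 20, 17, 6 and 2. The sequences U, Uextra, XHet and YHet, with 133 named rows together, held none. On 3L the shorter unnamed rows were also numerous, with 250 of 828.

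**Figure D2:**
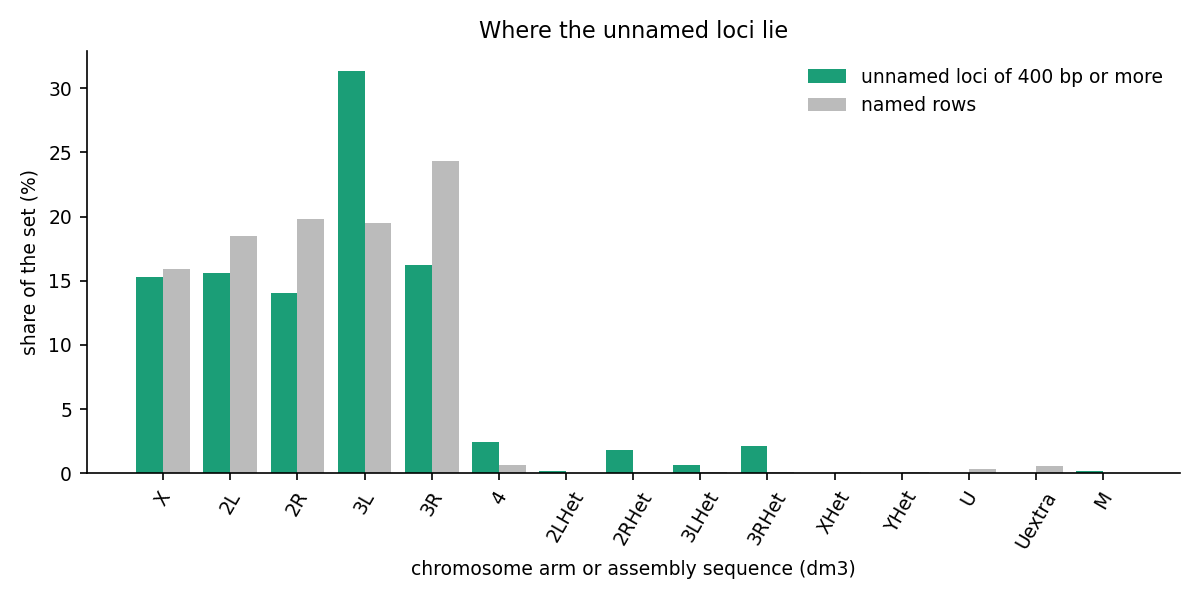
Share (%) of the 941 unnamed loci of 400 bp or more and of the named rows (y axis) on each chromosome arm or assembly sequence of dm3 (x axis). Arm 3L holds 31.3% of the unnamed loci and 19.5% of the named rows, and chromosome 4 holds 2.44% and 0.624%.

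Many loci lay in runs. With gaps of at most 5 kb between members, 511 loci (54.3%) fell into 85 runs of 3 or more, 28 of them on 3L with 201 loci, and 292 loci stood alone. The largest run was on 3L (10282198 to 10360450), where 51 loci lay on 15 spans over 78.3 kb with no named row among them. Its neighbours were Or67d, an odorant receptor gene, 14.5 kb to the left with at most 0.0686 RPKM, and CG12362, 45.5 kb to the right with at most 0.828 RPKM. The median of the run was 4.16 RPKM in the single mutant, 6.47 RPKM in the double mutant and 5.76 RPKM in control, above the median of all 941 loci in each library. Of its 51 loci, 38 were lower in the single mutant than in control and 42 were higher in the double mutant than in the single mutant. Over the 919 unnamed loci with at least 1 RPKM in at least 1 library, 522 were lower in the single mutant than in control. Of these 919, 542 were higher in the double mutant than in the single mutant and 484 higher than in control. By 2-fold with 1 RPKM added, 0 loci of the run were higher and 3 lower in the single mutant than in control. In the double mutant over the single mutant, 11 loci of the run were higher and 0 lower. Over the 919 unnamed loci, 6.31% were 2-fold higher and 9.25% lower in the single mutant than in control. In the double mutant over the single mutant, 10% of the 919 were higher and 3.92% lower. Over all rows the shares were 3.88% and 7.05% in the first comparison, and 6.02% and 2.81% in the second.

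At the centre of this run, 31 loci shared 1 span of 38.95 kb (3L, 10319743 to 10358693). Their values ran between 2.21 and 21.4 RPKM in the single mutant (median 4.41), 3.42 and 30.6 RPKM in the double mutant (median 8.81) and 1.88 and 34.5 RPKM in control (median 6.44). The double mutant was above the single mutant in 31 of 31 loci and above control in 24, and the single mutant was below control in 27. The highest (XLOC_008587) had 21.4 RPKM in the single mutant, 30.6 RPKM in the double mutant and 34.5 RPKM in control. The only locus of the span with an assigned direction (XLOC_006315, first pass) had 13.4, 20.1 and 17.8 RPKM. Loci of 1 span may be pieces of 1 transcript and are not independent of each other.

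**Figure D3:**
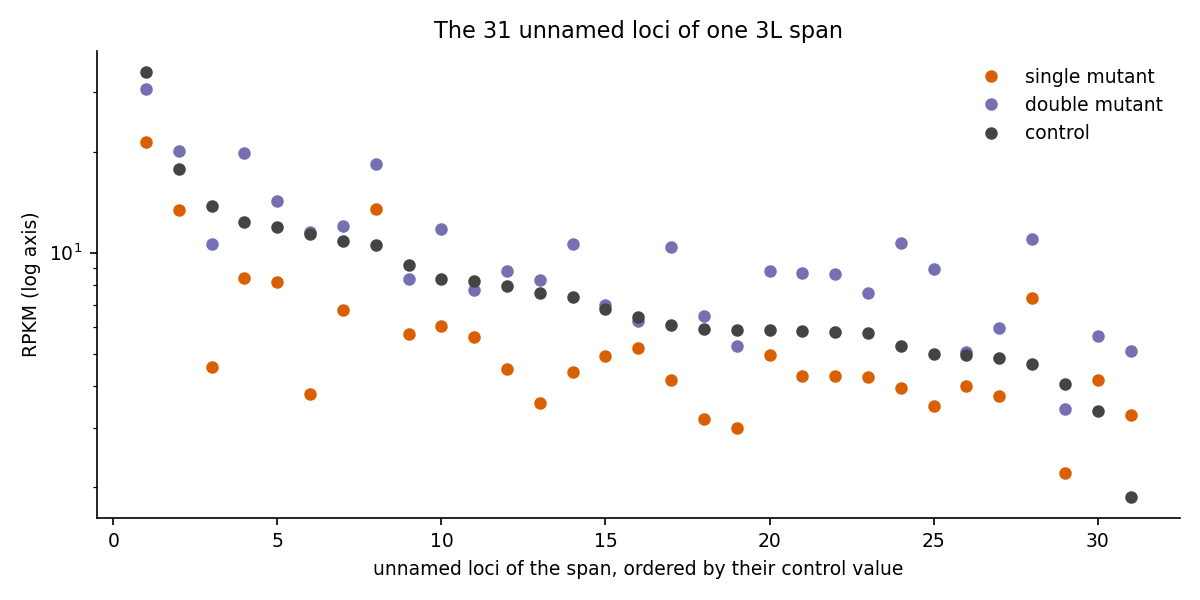
RPKM (y axis, log scale) of the 31 unnamed loci that share the 3L span from 10319743 to 10358693, ordered by their control value (x axis), in the single mutant, double mutant and control libraries. The double mutant value lies above the single mutant value in 31 of 31 loci, and the single mutant value lies below control in 27.

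The next runs differed in direction. On 3R (20809815 to 20848656), 18 loci of 1 bundle that ends 0.338 kb before the rows of CG11781 and beta4GalT7, beta4GalT7 being a glycosyltransferase gene, had medians of 2.51 RPKM in the single mutant, 4.19 RPKM in the double mutant and 3.69 RPKM in control. Loci of this bundle were among the highest and the lowest of the whole set. XLOC_012449 had 11.7 RPKM in the single mutant, 5.87 RPKM in the double mutant and 1.66 RPKM in control, whereas XLOC_012440 had 0.941, 7.40 and 9.98 RPKM and XLOC_012451 had 1.01, 13.0 and 5.72 RPKM. On 3L (2801933 to 2830845), 17 loci on 17 spans beside pgant6 had medians of 2.24 RPKM in the single mutant, 2.24 RPKM in the double mutant and 1.99 RPKM in control, with 13 of 17 higher in the double mutant than in control. A further 15 loci on 3L (16132600 to 16157814), 14 of them in the bundle of CG32152,CG5151, had medians of 2.39, 3.70 and 3.03 RPKM. Of the 15, 14 were higher in the double mutant than in the single mutant and 12 higher than in control. Over the 919 unnamed loci, 542 were higher in the double mutant than in the single mutant and 484 higher than in control. On X (12411820 to 12463702), 14 of 15 loci lay in the bundle of CG15729,CG42251 and the medians were 2.22 RPKM in the single mutant, 1.21 RPKM in the double mutant and 1.49 RPKM in control.

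Between the single mutant and control libraries, more unnamed loci were lower than higher. Of 919 loci with at least 1 RPKM in at least 1 library, 58 (6.31%) were at least 2-fold higher in the single mutant and 85 (9.25%) at least 2-fold lower, as log2((a + 1)/(b + 1)) of the RPKM values. Over all rows the same call took in 3.88% higher and 7.05% lower, and over named rows 2.7% higher and 3.62% lower. The median log2 ratio of the loci was -0.11, against 0.02 over all rows and 0.04 over named rows. Among rows of similar level, with a mean of 1 to 5 RPKM, 5.85% of 667 loci were higher and 8.1% lower, against 3.16% and 5.08% of 2246 named rows. Values that low rest on few reads. Of loci with a step count, 24.1% were past 2-fold where the single mutant and control libraries held under 20 reads together, 12% at 20 to 49 reads and 8.06% at 50 or more. A locus of few reads can pass the filter of 1 RPKM through 1 high library alone, which raises the share at few reads. The part of the filter in these shares was not tested. The single mutant library had the fewest reads.

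The locus with the largest log2 ratio, 3.60, was XLOC_008493 in a 3L bundle of 23 rows (5554799 to 5758806), with 11.1 RPKM in the single mutant and 5.81 RPKM in the double mutant, and listed at 0 in control. The second was a locus of 588 bp on 2L (17485776 to 17486362), in the first pass and 151 bp from CG5131. It had 27.0 RPKM in the single mutant, 0.145 RPKM in the double mutant and 1.56 RPKM in control, so the single mutant stood 17.3-fold above control and the double mutant below it. CG5131 had 15.2, 17.5 and 25.4 RPKM and did not share that pattern. Next came the first of a group of loci on 3L described below. In the bundle of mir-100 (2L, 18455648 to 18471823), the microRNA gene that shares a primary transcript with let-7, XLOC_002690 had 8.55 RPKM in the single mutant, 10.4 RPKM in the double mutant and 0.605 RPKM in control. The 10 highest also held a locus of 2049 bp on 3R (24088467 to 24090514), with 9.09 RPKM in the single mutant, 5.90 RPKM in the double mutant and 1.29 RPKM in control.

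The lowest ratio, -5.09, belonged to XLOC_002154, a locus of the second pass in the bundle of CG33310,GABA-B-R1, a row with a receptor gene for the transmitter GABA (2L, 15016884 to 15033461). It was listed at 0 in the single mutant and had 2.65 RPKM in the double mutant and 33.0 RPKM in control. The named row had 0.378 RPKM in the single mutant, 1.59 RPKM in the double mutant and 1.60 RPKM in control. XLOC_008730, in the bundle of CG3764 (3L, 16987811 to 17005775), was listed at 0 in both mutants and had 7.26 RPKM in control. A locus of its own on 2R (14139079 to 14139542) had no read in the single mutant, 8 in the double mutant (0.921 RPKM) and 30 in control (3.43 RPKM). With a floor of 3 reads in the single mutant, that library was 7.09-fold below control. The control count was taken without its counting error, so the fold is not a lower bound. A second such locus, on 2L (17620239 to 17620689), had 0 reads in the single mutant, 1 in the double mutant and 22 in control. Within the bundle of ft, the gene for the giant cadherin Fat, XLOC_002557 had 0.617 RPKM in the single mutant, 1.33 RPKM in the double mutant and 4.81 RPKM in control.

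Between the double mutant and control libraries, 89 of 919 unnamed loci (9.68%) were at least 2-fold higher in the double mutant and 69 (7.51%) at least 2-fold lower. All rows gave 4.75% higher and 5.07% lower, and named rows 3.09% higher and 1.63% lower. The median log2 ratio was 0.03 for the loci, 0.06 over all rows and 0.07 over named rows, and relative to the named rows it was -0.04. Of loci with a step count, 22.2% were past 2-fold under 20 reads, 16.7% at 20 to 49 and 10.6% at 50 or more in the double mutant and control libraries together. The limit set by the filter holds here too.

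The highest ratio, 3.06, was that of XLOC_012322 in a 3R bundle of 33 rows that holds pros, the gene of the neural differentiation factor Prospero (3R, 7047616 to 7233479). It had 7.33 RPKM in the double mutant and was listed at 0 in both other libraries. Of the 13 unnamed loci of this bundle, 11 were higher in the double mutant than in control and 11 higher than in the single mutant. The medians of the 13 were 0.626 RPKM in the single mutant, 2.09 RPKM in the double mutant and 1.26 RPKM in control. Over the 919 unnamed loci, 484 were higher in the double mutant than in control and 542 higher than in the single mutant. The row of pros, 1 of 20 named rows that overlap the bundle, had 9.99 RPKM in the single mutant, 22.1 RPKM in the double mutant and 8.08 RPKM in control. RpL3, the named row of this span with the highest mean, had 444274, 400127 and 349778 RPKM and was highest in the single mutant. A locus of 668 bp with its own span on 3L (23530616 to 23531282), 16432 bp from AGO3, a gene of the piRNA pathway, was listed at 0 in the single mutant and had 8.15 RPKM in the double mutant and 0.560 RPKM in control, which is 14.6-fold higher in the double mutant than in control. Near Sulf1, a gene for an extracellular sulfatase, XLOC_012381 had 1.02 RPKM in the single mutant and 4.76 RPKM in the double mutant and was listed at 0 in control.

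Among the lowest loci of the double mutant, XLOC_015114 in the X bundle of CG15729,CG42251 had 0.551 RPKM in the double mutant, 1.16 RPKM in the single mutant and 6.28 RPKM in control, which is 11.4-fold lower in the double mutant than in control. XLOC_012296 (3R, 5908947 to 5916415) had 0.963 RPKM in the double mutant, 3.36 RPKM in the single mutant and 8.10 RPKM in control. A locus of 451 bp on 3L (773364 to 773813) had 0.122 RPKM in the double mutant, 0.510 RPKM in the single mutant and 3.50 RPKM in control. It closes a run of 12 loci on 12 spans (3L, 756093 to 773813) to the right of emc, the gene of a helix-loop-helix protein without a DNA-binding region. Medians in this run were 0.736 RPKM in the single mutant, 0.669 RPKM in the double mutant and 1.70 RPKM in control. In the run 11 of 12 loci were lower in the double mutant than in control and 9 of 12 lower in the single mutant. Over the 919 unnamed loci, 434 were lower in the double mutant than in control and 522 lower in the single mutant. The gene emc itself had 75.1 RPKM in the single mutant, 48.9 RPKM in the double mutant and 30.8 RPKM in control, the opposite order to that of the loci beside it in the single mutant and control.

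Between the double mutant and single mutant libraries, higher loci outnumbered lower ones. The double mutant was at least 2-fold higher in 92 of 919 unnamed loci (10%) and at least 2-fold lower in 36 (3.92%). All rows gave 6.02% higher and 2.81% lower, and named rows 4.3% higher and 1.49% lower. The median log2 ratio was 0.16 for the loci, 0.04 over all rows and 0.04 over named rows. For rows with a mean of 1 to 5 RPKM it was 0.10 over 667 loci and 0.14 over 2246 named rows. In the fewest reads the calls were again most frequent, with 18.1% of loci past 2-fold under 20 reads, 11.2% at 20 to 49 and 5.2% at 50 or more, under the same limit of the filter.

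Several of the highest loci of this comparison lay in the bundle of ush, which encodes a cofactor of GATA factors (2L, 490800 to 540539). XLOC_002511 had 7.54 RPKM in the double mutant, was listed at 0 in the single mutant and had 1.15 RPKM in control, and XLOC_002515 had 3.42 RPKM in the double mutant and was listed at 0 in both other libraries. Of the 9 unnamed loci of this bundle, 9 were higher in the double mutant than in control and 8 higher than in the single mutant. Over the 919 unnamed loci, 484 were higher in the double mutant than in control and 542 higher than in the single mutant. The medians of the 9 were 1.42 RPKM in the single mutant, 4.17 RPKM in the double mutant and 0.807 RPKM in control. The row of ush had 4.64 RPKM in the single mutant, 5.70 RPKM in the double mutant and 1.86 RPKM in control, above control in both mutants, and of the loci 7 were above control in the single mutant, 1 was below and 1 was at 0 in both. XLOC_015169 on X (17349988 to 17455274) had 7.01 RPKM in the double mutant, 0.547 RPKM in the single mutant and 0.772 RPKM in control.

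The lowest ratio of the double to the single mutant, -4.61, was that of the 2L locus beside CG5131 described above, with 0.145 RPKM in the double mutant and 27.0 RPKM in the single mutant. In the bundle of dpr12, a gene of the Dpr family of neuronal surface proteins, XLOC_005469 had 0.420 RPKM in the double mutant, 6.46 RPKM in the single mutant and 2.49 RPKM in control. XLOC_008889, in the bundle of CG32458,CG41452,nrm, had 0.920 RPKM in the double mutant, 6.42 RPKM in the single mutant and 1.82 RPKM in control. Beside mod(mdg4), which encodes chromatin insulator proteins, a locus of the first pass (3R, 17176580 to 17177160) had 0.924 RPKM in the double mutant, 5.66 RPKM in the single mutant and 2.60 RPKM in control. A locus on 3R (26779204 to 26779717) had 15 reads in the single mutant (2.03 RPKM) and none in the double mutant or control. With a floor of 3 reads in the double mutant, it was 6.99-fold lower there than in the single mutant. The counting error of the 15 reads was left out.

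**Figure D4:**
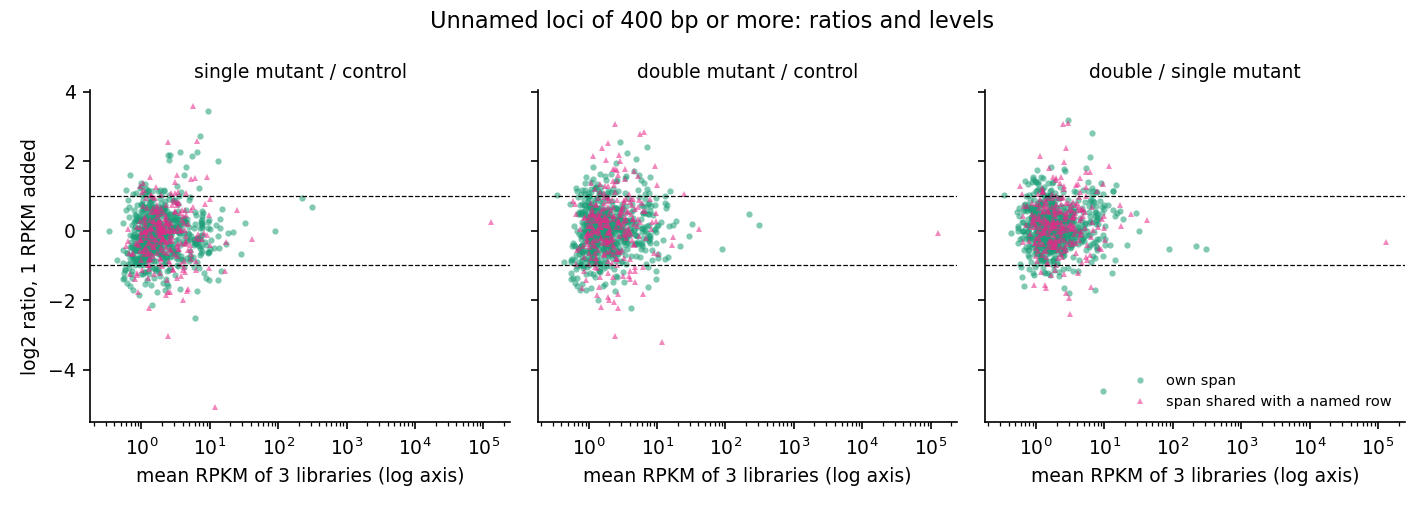
Log2 ratio with 1 RPKM added (y axis) against mean RPKM of the 3 libraries (x axis, log scale) for the 919 unnamed loci with at least 1 RPKM in at least 1 library, for the single mutant over control, the double mutant over control and the double over the single mutant. Dashed lines mark 2-fold. Circles are loci with a span of their own and triangles loci that share the span of a named row; most points lie between the lines, with 58, 89 and 92 loci above the upper and 85, 69 and 36 below the lower one.

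The comparisons of the mutants with control share the control library, so a low or high control value moves both. The mir-100 bundle held 6 unnamed loci, and 6 of 6 were higher in each mutant than in control. It was taken up after its values were seen, and it was among the runs most above control. Over the 919 unnamed loci, 394 exceeded control for the single mutant and 484 for the double mutant. Over all rows, 5927 and 6443 of 11475 did. By 2-fold with 1 RPKM added, 1 locus of the bundle was higher for the single mutant and 2 for the double mutant. Medians of the 6 loci were 4.05 RPKM in the single mutant, 4.54 RPKM in the double mutant and 1.84 RPKM in control. The mir-100 row had 7.50, 4.50 and 3.56 RPKM in the same libraries.

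A group of neighbouring loci on 3L was low in control alone. It was chosen after its values were seen, as the run of 3 or more loci with the highest median of the smaller of both log2 ratios over control, and its values are a description. Over 5.86 kb (3L, 19236910 to 19242765) 6 loci followed each other, each alone on its span and of the third pass. The first and longest, of 1131 bp, had 11.7 RPKM in the single mutant (256 reads), 9.09 RPKM in the double mutant (279 reads) and 0.905 RPKM in control (28 reads). Against control it was 12.9-fold up in the single mutant and 10.05-fold up in the double mutant. The second had 4.58, 2.68 and 0.373 RPKM, the third 6.56, 5.97 and 1.13 RPKM, and the fourth 4.89, 2.59 and 0.299 RPKM in the single mutant, double mutant and control. The fifth had 5.33 RPKM in the single mutant, 5.31 RPKM in the double mutant and 0.329 RPKM in control, and the last had 4.02 RPKM, 3.32 RPKM and 0.110 RPKM, the control value being 1 read. In 6 of 6 loci both mutants were at least 2-fold above control, and the values of the mutants did not overlap those of control. The run was chosen on these ratios, so neither is a separate result. By the same call, 28 of 919 unnamed loci and 85 of 9728 named rows were higher in both mutants.

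Summed over the 6 loci, there were 480 reads in the single mutant (95% exact Poisson interval 438 to 525), 508 reads in the double mutant (465 to 554) and 53 reads in control (39.7 to 69.3). Scaled to RPKM, this was 7.14 in the single mutant (6.51 to 7.80), 5.40 in the double mutant (4.94 to 5.89) and 0.559 in control (0.419 to 0.731), which is 12.8-fold and 9.66-fold above control. The intervals cover counting error only, take a step as 1 read, and do not hold the variation between animals or preparations. The 3 unnamed rows shorter than 400 bp in and beside the stretch followed the same order, with 27.9, 3.93 and 4.24 RPKM in the single mutant, 7.49, 1.41 and 0.827 RPKM in the double mutant, and 0, 0 and 0.273 RPKM in control. The row with 27.9 RPKM has a span of 188 bp, under the 202 bases not counted in the length. Its RPKM therefore cannot be set beside the other values. Read counts were not computed for the 3 rows. They lie in or beside a stretch chosen on its ratios and are no separate check. The named genes on either side differed less between libraries. To the left lay CG33647, with at most 0.0395 RPKM, and beyond it fz2, the gene of a Wnt receptor, with 30.2 RPKM in the single mutant, 34.9 RPKM in the double mutant and 22.2 RPKM in control. To the right lay mRpL21, a mitochondrial ribosomal protein gene, with 77.1, 58.2 and 53.9 RPKM, which is the order of the stretch at 1.43-fold and 1.08-fold above control, and rept, a gene of an AAA ATPase of chromatin complexes, with 91.9, 98.4 and 112.8 RPKM.

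**Figure D5:**
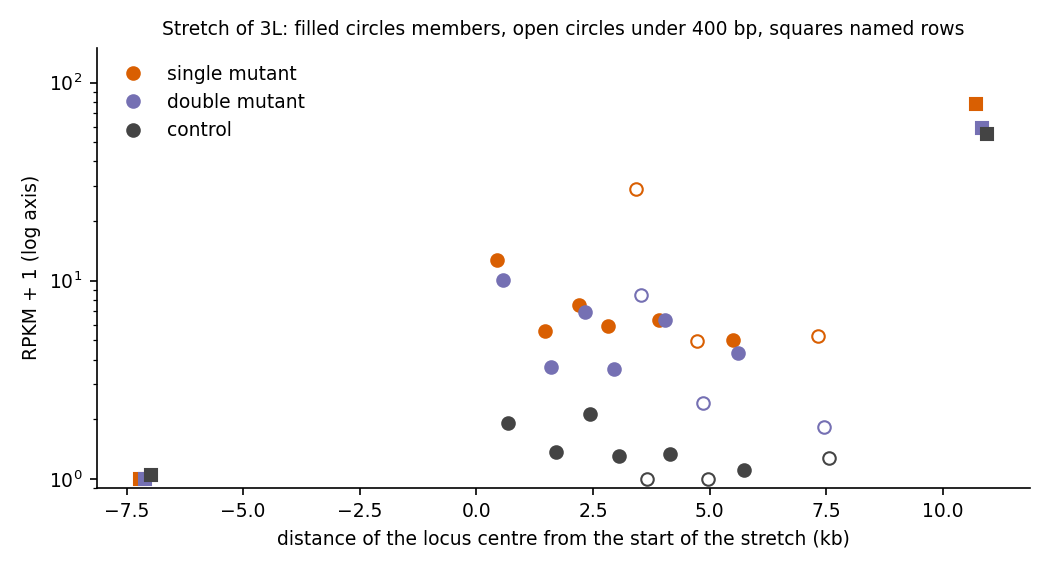
RPKM plus 1 (y axis, log scale) of the rows along the 3L stretch from 19236910 to 19242765, by distance of the row's centre from the start of the stretch in kb (x axis), in the single mutant, double mutant and control libraries. Filled circles are the 6 loci of 400 bp or more, open circles the shorter unnamed rows, and squares the named rows CG33647 (left) and mRpL21 (right); in the 6 loci both mutants stand above control, and mRpL21 has 77.1, 58.2 and 53.9 RPKM.

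Few loci were listed at 0. Of the 941, 31 were at 0 in the single mutant (3.29%), 16 in the double mutant (1.70%) and 10 in control (1.06%), against 9.70%, 8.01% and 6.47% of named rows. An unnamed locus is assembled from reads, whereas a named row can be at 0 in every library, so these shares differ by construction. The unnamed rows shorter than 400 bp had 17.8%, 16.9% and 3.86% at 0 in the same libraries. In the single mutant alone 21 loci were at 0, in the double mutant alone 9, and in control alone 5. Both mutants were at 0 in 6 loci, the single mutant and control in 4, and the double mutant and control in 1, while 895 loci had a value above 0 in every library. The single mutant library had the fewest reads and the most loci at 0, and a 0 says that no read was counted at that depth. The double mutant and control had read steps of 0.0303 and 0.0300 RPKM kb. If a step is 1 read their depth was nearly equal, but 16 and 10 loci were at 0. Among the 542 loci of the third pass alone on their span, 10 were at 0 in the double mutant and 3 in control. The part of depth in these counts was not tested. A locus of 412 bp on 3L (2814829 to 2815239) had 0 reads in the single mutant, 18 in the double mutant and 17 in control. A floor of 3 reads in the single mutant was 0.605 RPKM, 4.02-fold below control. The counting error of the 17 reads was left out.

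Loci past 2-fold mostly stood beside named rows that were not, and few of the named rows were past 2-fold at all. Where several named rows shared the span, the row with the highest mean was taken. The 13 loci of the 3R bundle that holds pros were thus paired with RpL3 and not with pros, which can lower the counts that follow. For 709 loci the nearest named row lay within 10 kb, or on the same span, and had at least 1 RPKM. Of these, 113 were past 2-fold between the single mutant and control, and in 2 the named row was past 2-fold in the same direction. Over the 709 loci the row was 2-fold higher in 17 and lower in 32 in that comparison. Between the double mutant and control it was 11 of 120, and between the double mutant and the single mutant 3 of 88, where the row was higher in 58 and lower in 5 of the 709. In the comparison of double mutant and control, the 11 were all higher, against 47 rows higher and 11 lower over the 709 loci, and 7 of them shared the span of the named row. Across loci, the Spearman correlation of the ratio of a locus with that of its row was 0.05 for the single mutant over control, 0.16 for the double mutant over control and 0.07 for the double over the single mutant. Several loci can share a row, and both ratios of a pair come from the same libraries, so these coefficients are descriptions and carry no p-value.

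Shares past 2-fold were also counted by kind of span. Of 256 loci that share the span of a named row, 8.2% were higher and 12.1% lower in the single mutant than in control, against 5.58% and 8.14% of 663 loci with their own span. In the double mutant over control the shares were 12.5% and 10.5%, against 8.6% and 6.33%, and in the double over the single mutant 12.9% and 4.69%, against 8.9% and 3.62%. Bundles with many unnamed loci were those of CG15729,CG42251 on X and CG32152,CG5151 on 3L with 14 each, of RpL3 and pros on 3R with 13, of CG11071,mamo on X and ush with 9 each, and of CG15831,CG42621, kek2 and rhea with 8 each. In the bundle of rhea, the talin gene, 8 of 8 loci were higher in the double mutant than in the single mutant. Over the 919 unnamed loci, 542 were. Medians of the 8 were 1.79 RPKM in the single mutant, 2.21 RPKM in the double mutant and 1.11 RPKM in control, while rhea had 86.6, 77.4 and 67.8 RPKM.

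By chromosome, the median log2 ratios of the loci stayed close to 0 on the large arms. In the single mutant over control they ran between -0.21 on 2L and -0.04 on X, and in the double mutant over control between -0.03 on 3R and 0.06 on 3L. In the double over the single mutant they ran between 0.07 on 3R and 0.25 on 2L. On chromosome 4 the medians over 22 loci were 0.11 in the single mutant over control, -0.29 in the double mutant over control and -0.33 in the double over the single mutant, with levels of 3.50 RPKM in the single mutant, 2.17 RPKM in the double mutant and 3.58 RPKM in control over its 23 loci. On 2RHet, over 17 loci, they were 0.28, 0.19 and -0.40. The highest locus of 2RHet lay in the bundle of rl, the MAP kinase gene (198176 to 338894), with 9.77 RPKM in the single mutant, 6.47 RPKM in the double mutant and 10.8 RPKM in control. Another locus of that sequence (2269809 to 2271084), the one farthest from a named row with 111.8 kb to CG41242, had 3.70 RPKM in the single mutant, 9.52 RPKM in the double mutant and 1.54 RPKM in control.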

How the data were processed

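Per the labels' protocols, TRIzol RNA of 3rd instar brains went through DNase I and Ribo-Zero rRNA depletion and was made into Ion Total RNA-Seq libraries, 1 per genotype. Per the submitters' processing notes, FastQC, Trimmomatic, TopHat2 2.0.9, Cufflinks 2.0.2 and the build dm3 were used; their settings were not given in the sources used here. RPKM values per assembled locus are as the authors deposited them. The mitochondrial rows of the table start at 0, so starts were read as counted from 0 and are printed with 1 added, and a printed region is 1 base shorter than its span. From the RPKM, log2((a + 1)/(b + 1)) was computed with Python 3.11.15 and pandas 2.3.3 for rows with at least 1 RPKM in at least 1 library, and 2-fold was the limit for a call; 1 named row with a missing value was left out, and rows that share a name were all kept. The nearest named row was the one with the smallest gap, or of several the one with the highest mean. Read steps were fitted to the lowest values and tested on simulated data. The strand of named rows came from the BDGP6 annotation by symbol, and no coordinates of that build were used. Named by rule are the 12 highest loci, the 10 highest and 10 lowest ratios of each comparison, loci at 0, the highest per chromosome, the longest, the largest runs and those at the 400 bp limit, of which the text gives the leading ones. The members and lists were chosen with earlier results of these data known. No sequence is printed, since no dm3 genome was used here. Alternatives were other pseudocounts, filters, spans, centring on named rows, loci that overlap no named row, and, chosen after seeing the data, 1 locus a span and all loci without the largest run.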

Additional observations from a re-analysis of the deposited data

How the results depend on the processing

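The pseudocount and the filter set the counts, and the order of higher and lower loci did not hold under each setting. The values that follow are given as higher, lower and median log2 for the single mutant over control, then the double mutant over control, then the double over the single mutant. With 0.1 RPKM added the counts were 114 and 201, 161 and 154, and 186 and 95 (median 0.23 in the last). With 5 RPKM added they were 7 and 5 (median -0.048), 10 and 5, and 8 and 3 (median 0.056), so the order of higher and lower turned in the first. At 5 RPKM in at least 1 library, 183 loci gave 21 and 29 (median -0.23), 33 and 22 (median 0.13) and 36 and 9 (median 0.28). From a span of 300 bp the counts were 88 and 164, 129 and 143, and 138 and 69, so that the order turned in the second. From 1000 bp they were 30 and 41, 49 and 30 (median 0.11), and 52 and 16 (median 0.21). Loci that overlap no named row gave 37 and 54, 57 and 42, and 59 higher. With 1 locus a span, 58 were higher in the double mutant than in control (median -0.025) and 53 higher than in the single mutant. Centred on the named rows, the median of the double mutant over control was -0.037, with 80 higher and 80 lower. Fewer or more loci enter under the span and overlap settings by construction; for the others the cause was not tested. Listed at 0 were 59, 32 and 17 loci from 300 bp and 19, 10 and 3 among loci that overlap no named row, in the single mutant, double mutant and control; from 1000 bp there were 13 and 6 in the single and double mutants, and 16 control values were under 0.1 RPKM. Loci that moved with their named row were 25, 19 and 16 with 0.1 RPKM added, and 1 in the first comparison among rows that join no genes. Without a filter the 2-fold counts stayed the same by construction, since loci under 1 RPKM cannot pass 2-fold with 1 RPKM added. Leaving out the largest run kept the 2-fold counts within 1.5 times. The counts at 0 and those with a named row were not run under either setting. For the loci named by rule, 16 ratios crossed the 2-fold limit with 0.1 RPKM added, 77 with 5 RPKM added and 4 after centring. The other 200, 139 and 212 stayed on the same side of it. Their signs are no check, since a pseudocount cannot change the sign of a ratio. Centring moved ratios by at most 0.067, too little to turn one past 2-fold. No paired analysis was possible because each genotype has 1 library. Depth limits single loci most, with a median of 13 reads in the single mutant.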

Other observations

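A stretch of 2R was nearly without reads in both mutants and was picked after its values were seen, as the run of 3 or more loci with the lowest median of the larger of both log2 ratios over control. In the run of 4 unnamed loci between 8018426 and 8023838, to the left of CG18343, there was 1 read in the single mutant (95% exact Poisson interval 0.0253 to 5.57), 5 reads in the double mutant (1.62 to 11.7) and 67 reads in control (51.9 to 85.1). The intervals take a step as 1 read and cover counting error only, and the run was chosen for its low mutant values. The loci had 0.171, 0, 0 and 0 RPKM in the single mutant, 0, 0, 0.601 and 0 RPKM in the double mutant, and 1.58, 2.02, 1.55 and 1.86 RPKM in control. Between the named rows jeb and CG18343 lay 9 unnamed rows, shorter ones included, of which 6 were listed at 0 in the single mutant, 6 in the double mutant and 0 in control. Of the 9 rows, 5 were shorter than 400 bp. Among all 828 such rows, 17.8% were at 0 for the single mutant, 16.9% for the double mutant and 3.86% for control. Relative to control, 44.9% of the 828 were at least 2-fold lower and 15% higher for the single mutant. For the double mutant these shares were 42.8% and 18.7%. Low mutant values were thus common among shorter rows. Of the 9 rows, the one next to jeb differed from the others, with 4.13 RPKM in the single mutant, 6.41 RPKM in the double mutant and 7.32 RPKM in control. CG18343 itself had 129 RPKM in the single mutant, 102 RPKM in the double mutant and 95.2 RPKM in control.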
